A study of Rattus norvegicus with 12 samples.

Results

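The nuclear genes for subunits of the mitochondrial respiratory chain were followed in RNA-seq libraries of rat hypothalamic tissue that contains the paraventricular nucleus (PVH). Members were the gene symbols for complex I (Nduf genes), complex II (Sdh genes), complex III (Uqcr genes and Cyc1), complex IV (Cox genes) and ATP synthase (Atp5 genes), kept where the mean level over the 12 libraries was at least 1 CPM (fragments of a gene scaled to the total of the library). Of 17310 identifiers in the files, 78 matched by symbol and 73 were kept, 33 of them for complex I, 4 for complex II, 9 for complex III, 10 for complex IV and 17 for ATP synthase. The symbols include a few proteins that are not subunits of the complex they are named for. Atp5s is factor B of ATP synthase, Atp5sl is an assembly protein of complex I, Cox7a2l joins complexes into supercomplexes, and Ndufa4 is now placed with complex IV.

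All rats were male wild-type Wistar rats aged 12 weeks, with 2 libraries in each of 6 groups. The groups were rats sampled 1 h after acute corticosterone (1 h acute), rats sampled 3 h after it (3 h acute), rats that received corticosterone at a high dose over 12 days (high Cort), adrenalectomised rats with corticosterone supplementation (supplemented ADX), rats 7 days after adrenalectomy (ADX) and sham-operated rats (sham). In rats corticosterone is the principal glucocorticoid, and adrenalectomy removes its source. The labels did not state whether the acutely treated rats had adrenal glands, named no vehicle group, gave no length of supplementation and did not say whether a library was 1 animal or a pool. The acute groups were therefore set against both supplemented ADX and sham. High Cort, ADX and sham were processed by the authors in one run and the other groups in another, so in comparisons across the runs a difference between runs and one between groups cannot be told apart. Where libraries of a group came from the same pool, p-values would measure technical spread only.

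The respiratory chain passes electrons from NADH (complex I) and succinate (complex II) through complex III to complex IV, which reduces oxygen. Complexes I, III and IV pump protons across the inner mitochondrial membrane, and ATP synthase uses the returning protons to make ATP, on which firing neurons depend heavily. Apart from complex II, each complex combines subunits encoded in mitochondrial DNA, which were not analysed here, with the nuclear-encoded subunits described below, and nuclear factors such as NRF1 and the ETS-family factor GABPA are known to act on many of the nuclear genes.

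Libraries held 17674161 to 36249008 fragments, and 1 h acute replicate 2 was the shallowest. PVH neuron markers were present in every library, with a mean log2 CPM of 4.67 to 6.0 over 8 genes. The level of 13 genes enriched in the neighbouring thalamus differed between libraries, summing to 2069 and 1368 CPM in 1 h acute, 2043 and 1957 CPM in 3 h acute, 3450 and 3541 CPM in high Cort, 2362 and 2432 CPM in supplemented ADX, 2233 and 2498 CPM in ADX, and 2833 and 3621 CPM in sham, and none was at 0 in any library. Ribosomal RNA from Rn18s reached 3486 CPM in replicate 1 of high Cort, against 575 to 1726 CPM in the other 11 libraries.

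Levels between genes were compared per transcript length, as FPKM averaged over the 6 libraries of the processing run that held high Cort, ADX and sham. The catalytic core of ATP synthase led the list, with 636 FPKM for Atp5b (the β subunit) and 502 FPKM for Atp5a1 (the α subunit), followed by 268 FPKM for Atp5i (subunit e, at the interface between paired ATP synthases). By fragments Atp5i averaged 20.4 CPM. The transcript length implied by its fragments and FPKM was 0.039 of that of the median gene, the shortest of the members. These implied lengths were not checked against annotated transcripts, so the FPKM of very short messages such as Atp5i is uncertain to that extent. The lowest members were Atp5s at 5.58 FPKM, Uqcrq (a small complex III subunit) at 8.21 FPKM and Atp5sl at 21.2 FPKM. The low FPKM of Uqcrq goes with a long implied length, 0.679 of the median gene, against 0.110 for Uqcr10. By fragments Uqcrq averaged 11.3 CPM and Uqcr10 10.8 CPM, although Uqcr10 had 49.0 FPKM. By FPKM, complex IV had the highest median, 148 FPKM over its 10 genes, with a range of 54.3 FPKM for Cox7a2l to 215 FPKM for Cox6a1. This order of complexes rests on the implied lengths, and an order by fragments can differ. The median was 101 FPKM for ATP synthase and 95.2 FPKM for complex II, where Sdha, the flavoprotein that oxidises succinate, reached 223 FPKM and Sdhd, a membrane anchor, 52.6 FPKM. It was 68.5 FPKM for complex III, up to 142 FPKM for the core protein Uqcrc2, and 54.6 FPKM for complex I, where Ndufb5 was lowest at 21.4 FPKM. Atp5g1, Atp5g2 and Atp5g3, which encode the same mature c subunit of the ATP synthase rotor, stood at 59.1, 80.7 and 101 FPKM, so no copy accounted for most of that message.

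**Figure D1:**
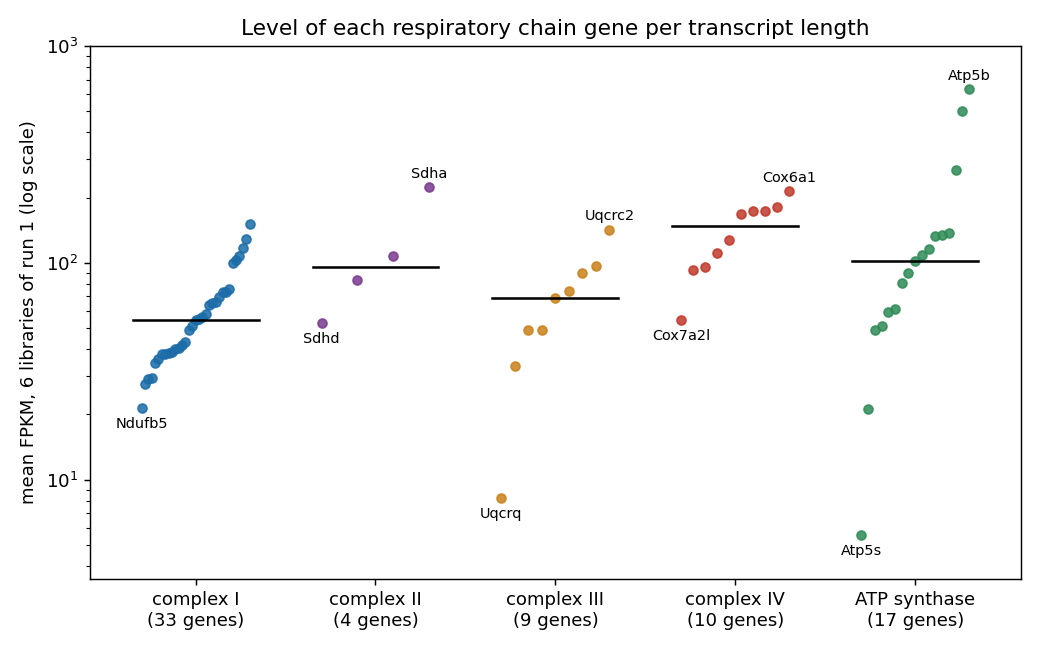
Mean FPKM of each of the 73 genes over the 6 libraries of the run with high Cort, ADX and sham (log scale), by complex; each point is a gene and each line the median of its complex. Atp5b and Atp5a1 stand above all others, and Uqcrq and Atp5s stand apart at the low end.

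Of the 5 symbols below the 1 CPM threshold, all encode tissue-restricted isoforms of complex IV. Cox4i2, the isoform known from lung, averaged 0.60 CPM, with 11 to 28 fragments per library. Cox6b2, known from testis, averaged 0.154 CPM, and the striated muscle isoforms Cox6a2 and Cox8b averaged 0.041 and 0.0085 CPM. Cox8c was represented by a single fragment in sham replicate 1. Where matched, their broadly expressed counterparts were abundant: Cox4i1 had 75.4 to 89.9 CPM, Cox6a1 62.0 to 73.3 CPM and Cox8a 41.8 to 51.7 CPM over the 12 libraries. No broadly expressed counterpart of Cox6b2 was among the matched symbols. The members just above the threshold were Ndufs6 at 3.64 CPM, Ndufa1 at 6.66 CPM and Atp5e at 7.66 CPM, so none lay near it.

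Together the 73 genes held 5262 to 5684 CPM, or 0.526% to 0.568% of all fragments. They summed to 5406 and 5262 CPM in 1 h acute, 5487 and 5684 CPM in 3 h acute, 5634 and 5361 CPM in high Cort, 5493 and 5678 CPM in supplemented ADX, 5450 and 5477 CPM in ADX and 5515 and 5500 CPM in sham. The lowest sum was that of 1 h acute replicate 2 and the highest that of 3 h acute replicate 2. Averaged as log2 CPM with each gene centred on its own mean, the list stood at −0.052 and −0.087 in 1 h acute, 0.035 and 0.077 in 3 h acute, 0.049 and −0.034 in high Cort, −0.004 and 0.054 in supplemented ADX, −0.058 and −0.015 in ADX and 0.014 and 0.021 in sham. The SD between libraries of a group was 0.0354, pooled over groups. The 1 h acute libraries lay below both libraries of supplemented ADX, sham and 3 h acute, whereas the high Cort libraries lay on either side of both sham libraries.

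**Figure D2:**
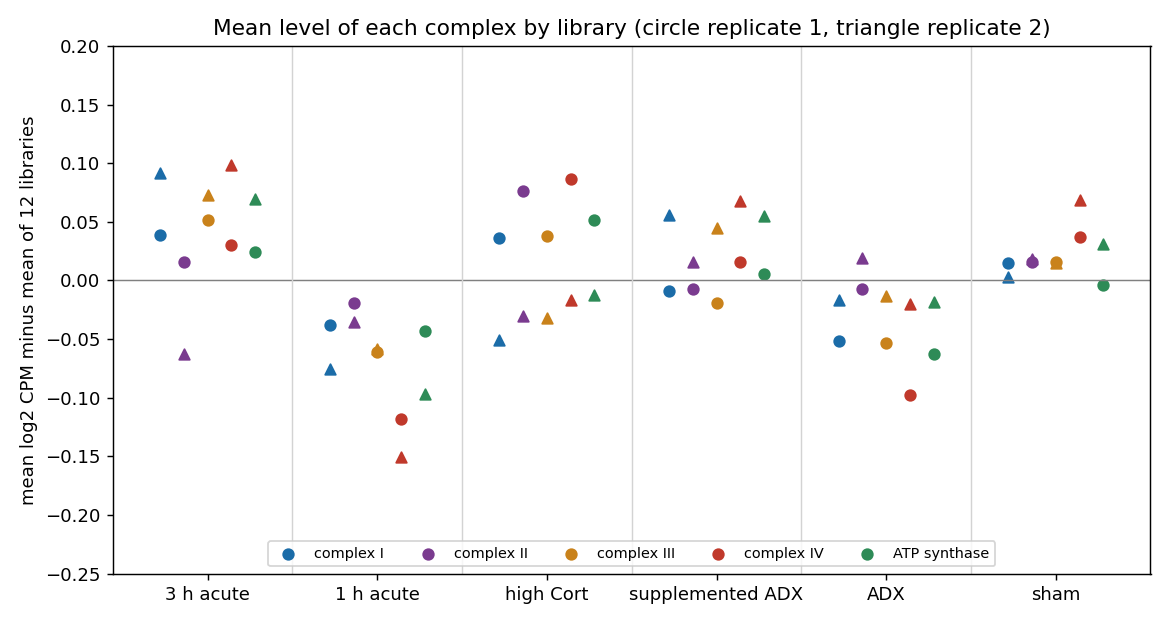
Mean log2 CPM of each complex in each library, relative to its mean over 12 libraries; circles are replicate 1, triangles replicate 2. Complex IV is lowest in the pair of 1 h acute libraries (−0.118 and −0.151), and complex II stays within −0.062 and 0.076.

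Tests were those of edgeR's quasi-likelihood model, fitted to all 12856 genes that passed a filter on low counts, and a gene was called at a Benjamini-Hochberg adjusted p under 0.05. All 73 members passed the filter. A test of any difference among the 6 groups called 3 members, Atp5i (adjusted p = 0.0337), Cox7a2 (adjusted p = 0.0421) and Cox6c (adjusted p = 0.0426), against 12.9% of all genes. Over 10 comparisons of group pairs, 6 members were called in at least 1 and 67 in none. The median standard error of a log2 fold change was 0.065 to 0.070 in each comparison, and the largest fold change of a member was 1.33-fold. In the 8 comparisons without a call by edgeR, DESeq2 also called no member. In RefSeq, 16 of the 73 genes overlap another protein-coding gene, among those described below Cox7a2, Uqcrc2, Uqcrq, Cox8a, Atp5sl, Ndufa2, Ndufb2, Ndufb5, Ndufs6 and Uqcr10, and without a stated strand their fragments are uncertain to that extent.

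**Figure D3:**
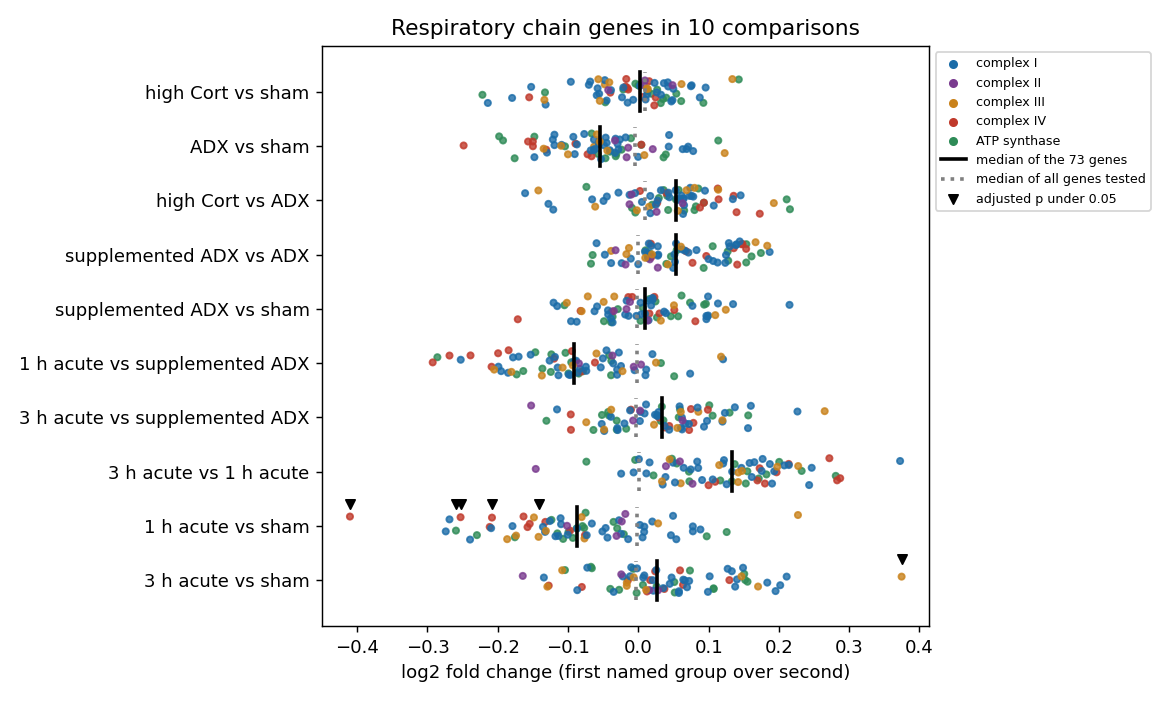
Log2 fold changes of the 73 genes in the 10 comparisons, first-named group over second; points are genes coloured by complex, solid lines the median of the 73, dotted lines the median of all 12856 genes, triangles the genes with an adjusted p under 0.05. The list is shifted most in 3 h acute against 1 h acute (median 0.133), and calls occur only in the comparisons of an acute group with sham.

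In 1 h acute against sham, 5 members were lower and none was higher. They were 3 complex IV subunits, Cox7a2, Cox5a and Cox6c, with Atp5i of ATP synthase and Uqcrc2, a core protein of complex III. Over all genes 7.2% were called lower and 5.56% higher, so 5 of 73 is no larger share than that of genes in general. On CPM scaled for library composition (TMM), the scale of every such count of members and genes here, both 1 h acute libraries lay below both sham libraries for 45 members and above them for 7, against 29.1% and 27.5% of all genes, and 19 members were lower and 1 higher at an unadjusted p under 0.05, against 14.6% and 12.8%. These samples come from bulk tissue, where fewer cells of a type and less RNA per cell cannot be told apart.

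Cox7a2 encodes the broadly expressed form of a small complex IV subunit and had the largest difference. It had 23.0 and 23.8 CPM in 1 h acute, 27.3 and 29.4 CPM in 3 h acute, 28.5 and 25.1 CPM in high Cort, 25.3 and 29.5 CPM in supplemented ADX, 25.4 and 26.6 CPM in ADX and 30.6 and 29.8 CPM in sham. Both 1 h acute libraries lay below all other libraries, and both sham libraries above them. The log2 fold change of 1 h acute over sham was −0.41 ± 0.083 (SE, adjusted p = 0.00724). In the RefSeq annotation the gene overlaps Tmem30a, and the counting is not stated to use strand, so part of its fragments may be uncertain. Tmem30a had 213.5 to 247.0 CPM and a log2 fold change of −0.12 in 1 h acute against sham (adjusted p = 0.0995).

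Atp5i had 18.9 and 18.4 CPM in 1 h acute against 21.9 and 21.8 CPM in sham, a log2 fold change of −0.26 ± 0.069 (SE, adjusted p = 0.0246). It stood at 20.1 and 21.5 CPM in 3 h acute, 18.9 and 18.1 CPM in high Cort, 23.0 and 22.4 CPM in supplemented ADX and 19.9 and 20.4 CPM in ADX. High Cort was thus as low as 1 h acute for this gene, and supplemented ADX was the highest group. Cox6c had 37.4 and 36.04 CPM in 1 h acute against 41.2 and 41.7 CPM in sham, a log2 fold change of −0.21 ± 0.063 (SE, adjusted p = 0.0437). It had 42.9 and 45.9 CPM in 3 h acute and 40.9 and 43.2 CPM in supplemented ADX, groups that overlapped, and the ADX libraries, at 37.8 and 38.1 CPM, lay just above 1 h acute.

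Cox5a, which binds to the matrix side of the complex IV core, had 30.4 and 30.3 CPM in 1 h acute against 33.3 and 37.2 CPM in sham, a log2 fold change of −0.25 ± 0.076 (SE, adjusted p = 0.0413). The sham libraries differed from each other by more than the lower one differed from 1 h acute. Uqcrc2 had 221 and 209 CPM in 1 h acute against 229 and 234 CPM in sham, a log2 fold change of −0.14 ± 0.044 (SE, adjusted p = 0.0463), the smallest difference of the 5. The 13 thalamus genes moved with this comparison, with 8 called lower in 1 h acute, and 7 of 13 general neuron markers were called lower, summing to 7619 and 7271 CPM in 1 h acute against 7970 and 8062 CPM in sham. With the thalamus score of each library as a covariate, no member was called, where 3 of all 12856 genes were. The log2 fold change of Cox7a2 in that fit was −0.43 (adjusted p = 0.995). DESeq2 called 1 of 73, Cox7a2, where it called 1360 of all 12856 genes. None of the 5 calls was kept in every fit with a library left out. With 1 library left out at a time, the log2 fold change was −0.418 to −0.390 for Cox7a2 and −0.287 to −0.228 for Atp5i. It was −0.245 to −0.168 for Cox6c, −0.330 to −0.157 for Cox5a and −0.189 to −0.087 for Uqcrc2.

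**Figure D4:**
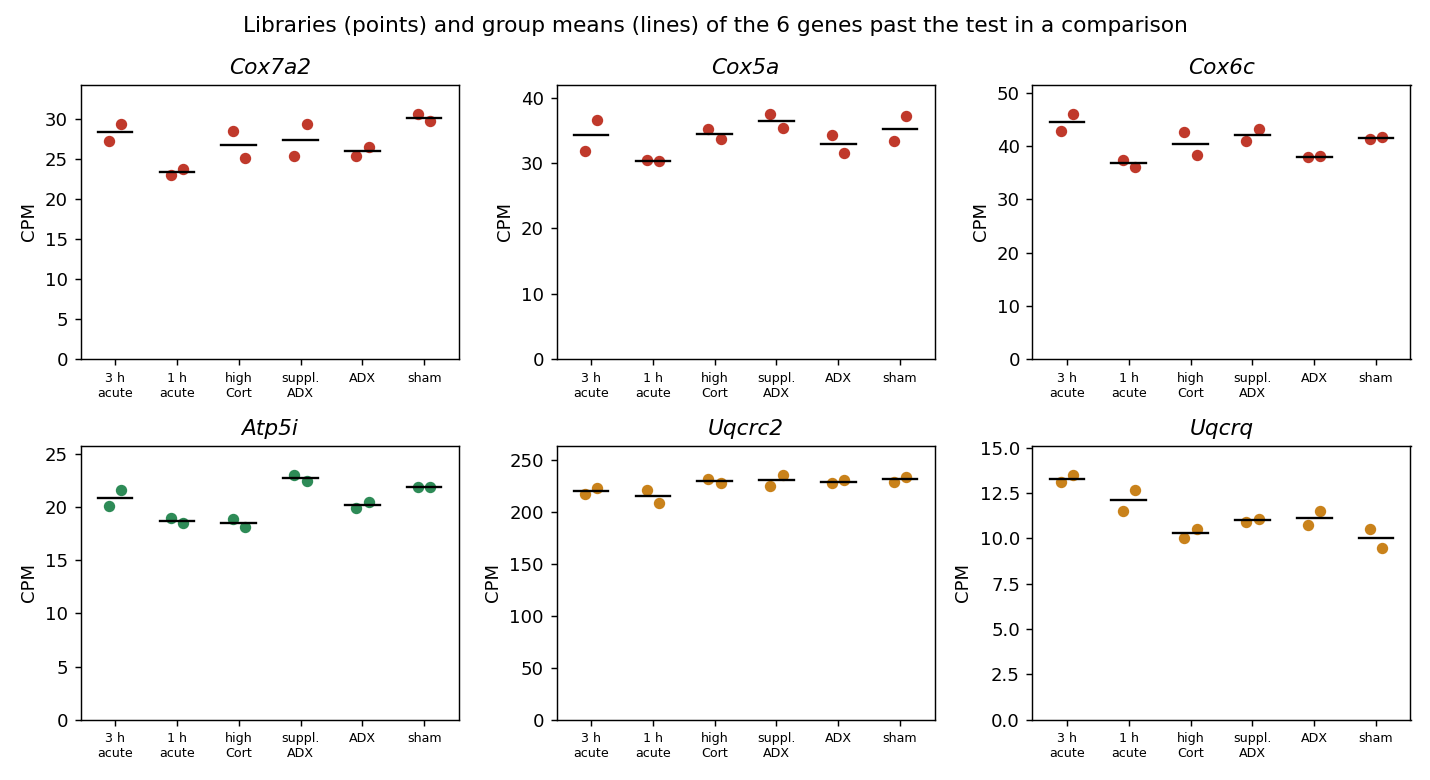
CPM of the 6 genes called in any comparison; points are the 2 libraries of each group and lines the group means, on axes that start at 0. Cox7a2 and Cox6c are lowest in 1 h acute (means 23.4 and 36.7 CPM), Atp5i is as low in high Cort (18.5 CPM) as in 1 h acute (18.7 CPM), and Uqcrq is highest in 3 h acute (13.3 CPM).

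The 250 bases before the transcription start of Atp5i, Cox7a2 and Uqcrc2 are shown because these are the genes called lower, among the 4 of 5 with a promoter window, that held matches to nuclear factors known from this gene family. No window was found for Cox6c. They are the RefSeq GRCr8 sequence, read 5′ to 3′ on the gene's strand, and capitals mark matches on either strand to the cores GCATGCGC (NRF1), CCGGAAG (ETS, GABPA) and AAGATGGC (YY1).
Atp5i, chr14:1464610-1464859, plus strand: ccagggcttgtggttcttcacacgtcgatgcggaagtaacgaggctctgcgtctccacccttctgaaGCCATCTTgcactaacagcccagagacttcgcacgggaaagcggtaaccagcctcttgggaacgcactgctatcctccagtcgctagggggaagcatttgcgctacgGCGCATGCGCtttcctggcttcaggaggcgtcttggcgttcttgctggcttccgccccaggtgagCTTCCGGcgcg
Cox7a2, chr8:89601150-89601399, minus strand: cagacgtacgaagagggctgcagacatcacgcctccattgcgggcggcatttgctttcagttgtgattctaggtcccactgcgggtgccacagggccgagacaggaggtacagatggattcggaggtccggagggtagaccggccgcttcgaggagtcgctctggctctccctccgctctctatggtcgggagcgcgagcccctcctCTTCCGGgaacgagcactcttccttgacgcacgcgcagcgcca
Uqcrc2, chr1:184598990-184599239, plus strand: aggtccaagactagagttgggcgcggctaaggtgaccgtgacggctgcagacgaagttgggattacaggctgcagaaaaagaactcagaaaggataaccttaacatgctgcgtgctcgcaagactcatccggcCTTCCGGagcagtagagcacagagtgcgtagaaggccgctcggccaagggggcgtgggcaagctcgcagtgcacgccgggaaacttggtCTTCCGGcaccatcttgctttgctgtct
The Cox7a2 window precedes a start that lies within the annotated gene. Atp5i held all 3 cores, its capital run at the NRF1 core being a palindrome matched on both strands, Cox7a2 held 1 ETS core and Uqcrc2 held 2. The window of Cox5a held none of the cores. Promoter windows were found for 63 of the 73 members. Shares are set beside all 27457 windows, more than the 17310 identifiers in the files, so these include genes not measured here. They were not matched to the members for expression or base content. The NRF1 core occurred in 8 of 63 (12.7%), against 2.38% of all 27457 windows of this length, and the ETS core in 18 of 63 (28.6%), against 7.74%. The YY1 core occurred in 2 (3.17%, against 1.69%) and the ERRα motif TCAAGGTCA in 1 (1.59%, against 0.368%). The palindromic consensus of the glucocorticoid response element was matched in 0 of 63, against 0.364% of all windows, which says only that it is not in these windows.

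Against supplemented ADX, which was in the run of the acute groups, 1 h acute gave lower values for most members. The log2 fold change was positive in 10 of 73, with a median of −0.091 against −0.002 over all genes. The median was −0.054 when the fit held the thalamus score, −0.059 without supplemented ADX replicate 2 and −0.060 without 1 h acute replicate 2. The thalamus genes were positive in 0 of 13, with a median of −0.63, and Rn18s stood at 654 and 575 CPM in 1 h acute against 1187 and 1726 CPM in supplemented ADX; the part of Rn18s in the result was not tested. No member was called by edgeR, against 0.0467% of all genes, while 17 were lower and 0 higher at an unadjusted p under 0.05, against 6.85% and 7.86%. Both 1 h acute libraries lay below both supplemented ADX libraries for 46 members and above them for 4, against 23.5% and 23% of all genes. The smallest p-values were those of Atp5i (log2 fold change −0.29 ± 0.067, SE, adjusted p = 0.126), Cox5a (−0.27 ± 0.075, adjusted p = 0.165) and Cox7b, another small complex IV subunit (−0.29 ± 0.082, adjusted p = 0.165). Cox7b had 18.9 and 18.3 CPM in 1 h acute against 22.5 and 23.0 CPM in supplemented ADX.

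In 3 h acute against 1 h acute, the log2 fold change was positive in 68 of 73 members, with a median of 0.133 against 0.001 over all genes. No member was called by edgeR, where 0.0233% of all genes were. At an unadjusted p under 0.05, 27 members were higher and 0 lower, where 4.92% and 5.7% of all genes were. Both 3 h acute libraries lay above both 1 h acute libraries for 51 members and below them for 0, against 19.5% and 19.4% of all genes. Members share libraries and scaling and are not independent, so these counts are a description. Leading by p were Cox6c, with a log2 fold change of 0.27 ± 0.064 (SE, adjusted p = 0.174), Ndufa8, an accessory subunit of complex I, with 0.24 ± 0.064 (adjusted p = 0.195), and Cox5b, with 0.29 ± 0.076 (adjusted p = 0.195). Ndufa8 had 27.6 and 27.8 CPM in 3 h acute against 23.1 and 23.8 CPM in 1 h acute, and Cox5b had 37.3 and 37.1 CPM against 29.8 and 31.4 CPM.

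Complex IV had the largest median of the complexes in this comparison. All 10 of its genes were positive in 3 h acute against 1 h acute, from 0.10 for Cox7c to 0.29 for Cox5b, with a median of 0.188, and 8 of the 10 had an unadjusted p under 0.05. The median was 0.142 for complex III, 0.133 for ATP synthase, 0.122 for complex I and 0.049 for complex II. In 1 h acute, the complex IV median was −0.192 against supplemented ADX and −0.161 against sham, with 0 of 10 positive in each. By a criterion chosen after the values were seen, on TMM-scaled values both 1 h acute libraries lay below all libraries of 3 h acute, supplemented ADX and sham for 10 of 10 complex IV genes, 11 of 33 of complex I, 2 of 4 of complex II, 3 of 9 of complex III and 7 of 17 of ATP synthase, where 7.16% of all genes did. No member lay above all of them, where 7.28% of all genes did. On CPM without that scaling the groups overlap for some of these genes, as for Cox7c, at 43.0 and 44.2 CPM in 1 h acute against 45.6 and 44.0 CPM in sham. The criterion left out ADX and high Cort. Over all members, the list stood at −0.058 and −0.015 in ADX, against −0.052 and −0.087 in 1 h acute. Complex IV stood at −0.098 and −0.020 in ADX, against −0.118 and −0.151 in 1 h acute. Whether complexes differ in response was not tested.

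The members have short messages, and short messages in general shifted in these comparisons. Transcript length implied by fragments and FPKM was a median of 0.241 relative to that of the median gene, and 71 of 73 members were shorter than the median gene. When all tested genes were split into 5 equal classes by this length, 60 members fell in the shortest class, 9 in the next and 4 in the middle one. The shortest class had a median relative length of 0.432, longer than that of the members, so the classes are not matched to them in length. In 3 h acute against 1 h acute the median log2 fold change was 0.067, 0.023, 0.004, −0.016 and −0.041 in the classes ordered short to long. The shortest class also moved down in 1 h acute against supplemented ADX (−0.049) and against sham (−0.041). The cytosolic ribosomal protein genes, another family of short messages, had a median of 0.155 in 3 h acute against 1 h acute, with 78 of 81 positive, and 0 were called. With the trend on length removed, an alternative chosen after the data were seen, the median of the 73 members was 0.040 in 3 h acute against 1 h acute and that of complex IV 0.077, with 9 of 10 still positive, and 1 member, Cox7a2, was called in 1 h acute against sham.

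**Figure D5:**
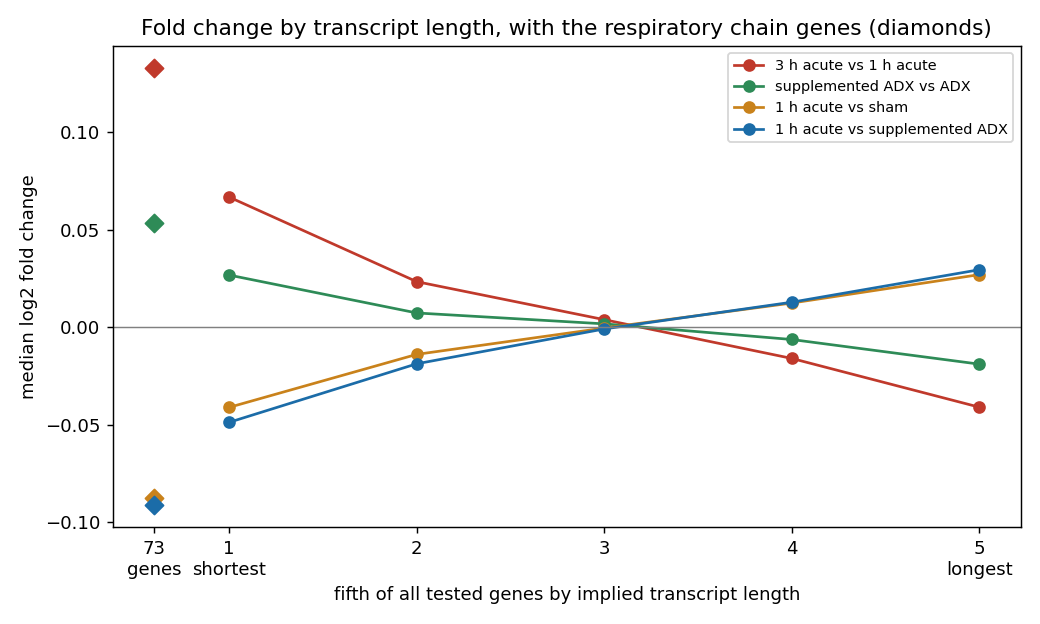
Median log2 fold change of all tested genes in 5 equal classes of implied transcript length (circles, shortest at left), with the median of the 73 respiratory chain genes as diamonds, for 4 comparisons. The members lie on the side of the short genes and farther from 0 than the shortest class, at 0.133 against 0.067 in 3 h acute against 1 h acute. They are also shorter than that class, with a median relative length of 0.241 against 0.432.

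In 3 h acute against sham, 1 member was called, Uqcrq, which was higher, where 7.98% of all genes were called and 3.41% were called higher. The log2 fold change was positive in 48 of 73 members, with a median of 0.026, and 7 were higher and 2 lower at an unadjusted p under 0.05, against 11% and 14% of all genes. Both 3 h acute libraries lay above both sham libraries for 25 members and below them for 9, against 25.4% and 27.6% of all genes. The median of the members was 0.076 when the fit held the thalamus score and 0.0023 with the length trend removed, and it was 0.0058 without 3 h acute replicate 2, 0.064 without 3 h acute replicate 1 and 0.045 without sham replicate 1. The thalamus genes were positive in 0 of 13, with a median of −0.91. Uqcrq had 13.1 and 13.5 CPM in 3 h acute, 11.5 and 12.7 CPM in 1 h acute, 10.0 and 10.5 CPM in high Cort, 10.9 and 11.1 CPM in supplemented ADX, 10.7 and 11.5 CPM in ADX and 10.5 and 9.50 CPM in sham. Both 3 h acute libraries were above all other libraries, and the log2 fold change over sham was 0.37 ± 0.092 (SE, adjusted p = 0.0263). The implied length of its message, 0.679 of the median gene, was longer than that of the similarly small subunits Uqcr10 (0.110), Uqcr11 (0.148) and Uqcrh (0.169), and in RefSeq it overlaps Gdf9, which had 0.031 to 0.193 CPM. The call was lost with DESeq2, with the thalamus score as a covariate, and without sham replicate 2 or either of the 3 h acute libraries. Without 3 h acute replicate 1 the 1 member called was another, Sdhb of complex II, which was lower (log2 fold change −0.39, adjusted p = 0.0115).

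In 3 h acute against supplemented ADX, the log2 fold change was positive in 49 of 73 members, with a median of 0.033 against −0.003 over all genes. That median was 0.0062 without supplemented ADX replicate 1, 0.0046 without 3 h acute replicate 2, 0.056 without supplemented ADX replicate 2 and 0.055 without 3 h acute replicate 1, and 0.015 with the length trend removed. No member was called, where 0.00778% of all genes were, and 4 were higher and 1 lower at an unadjusted p under 0.05, against 6.67% and 5.87%. The smallest p-values belonged to Ndufs7, an iron-sulphur core subunit of complex I (log2 fold change 0.23 ± 0.071, SE, adjusted p = 0.240), Uqcrq (0.27 ± 0.089, adjusted p = 0.264) and Ndufs1, the largest iron-sulphur subunit (−0.12 ± 0.049, adjusted p = 0.348). Ndufs7 had 32.9 and 31.2 CPM in 3 h acute against 26.9 and 27.6 CPM in supplemented ADX, and it was 1 of the 4 members for which both 1 h acute libraries, here at 28.3 and 31.6 CPM, also lay above supplemented ADX. Ndufs1 had 274 and 273 CPM in 3 h acute against 285 and 305 CPM in supplemented ADX.

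In rats 7 days after adrenalectomy without supplementation, most members had slightly lower values, none of which passed the test. In ADX against sham, the log2 fold change was positive in 14 of 73, with a median of −0.055 against −0.005 over all genes, and 0.233% of all genes were called. At an unadjusted p under 0.05, 7 members were lower and 0 higher, against 7.59% and 5.22% of all genes. Both ADX libraries lay below both sham libraries for 31 members and above them for 5, against 25% and 22.2%. Without ADX replicate 1 the median was −0.025, and with the thalamus score it was −0.031. The thalamus genes were positive in 0 of 13, with a median of −0.52, and both ADX libraries lay below both sham libraries for 10 of 13 general neuron markers, which summed to 7632 and 7833 CPM in ADX against 7970 and 8062 CPM in sham. Cox7a2 was lowest by p (log2 fold change −0.25 ± 0.079, SE, adjusted p = 0.213), followed by Cox7c, a small complex IV subunit (−0.15 ± 0.053, adjusted p = 0.264), and Atp5sl (−0.18 ± 0.064, adjusted p = 0.283). Cox7c had 41.0 and 41.4 CPM in ADX against 45.6 and 44.0 CPM in sham.

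Supplemented ADX and high Cort were each set against ADX, which they share, and most members had positive values in each. In supplemented ADX against ADX, 60 of 73 members were positive with a median of 0.054 against −0.0004 over all genes, 8 were higher and 0 lower at an unadjusted p under 0.05 (2.06% and 1.99% of all genes), and none was called, where 0.0311% of all genes were. Both supplemented ADX libraries lay above both ADX libraries for 28 members and below them for 2, against 17.4% and 17.6% of all genes. The median was 0.089 without supplemented ADX replicate 1 and 0.017 without its replicate 2. Leaving out an ADX library gave 0.034 for replicate 1 and 0.083 for replicate 2. With the length trend removed the median of the members was 0.0084, with 46 of 73 positive. The shortest class of all genes had a median of 0.027, and these groups came from different runs. The leading values were those of Atp5i (log2 fold change 0.17 ± 0.065, SE), Atp5h, subunit d of the ATP synthase stalk (0.16 ± 0.062), and Cox7c (0.14 ± 0.052), all with an adjusted p of 1.00. Atp5i had 23.0 and 22.4 CPM in supplemented ADX against 19.9 and 20.4 CPM in ADX, groups that did not overlap. In high Cort against ADX, 56 of 73 were positive with a median of 0.053 against 0.010, 8 were higher and 0 lower at an unadjusted p under 0.05 (12.4% and 8.54% of all genes), and none was called, although 5.77% of all genes were. Atp5sl came closest, with 34.2 and 38.0 CPM in high Cort libraries and 32.7 and 31.8 CPM in ADX libraries (log2 fold change 0.22 ± 0.064, adjusted p = 0.0615), before Cox6a1 (0.17 ± 0.056, adjusted p = 0.0861) and Cox7c (0.14 ± 0.053, adjusted p = 0.156). Without high Cort replicate 1, the library of high Rn18s, the median over the members was 0.0045, without ADX replicate 1 it was 0.024, and with the thalamus score it was 0.023. All 13 thalamus genes were positive in this comparison, with a median of 0.55, and 2 of 13 neuron markers were called higher.

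After 12 days of high corticosterone, the members as a list did not stand apart from sham. In high Cort against sham, 38 of 73 were positive with a median of 0.002 against 0.010 over all genes, 0 were higher and 2 lower at an unadjusted p under 0.05 (4.04% and 4.32% of all genes), and none was called, where 0.871% of all genes were. Without high Cort replicate 1 the median was −0.055, and it was negative in 9 of 14 alternatives, so its sign is not settled. The smallest p belonged to Atp5i, at 18.9 and 18.1 CPM in high Cort libraries and 21.9 and 21.8 CPM in sham libraries, a log2 fold change of −0.22 ± 0.068 (SE, adjusted p = 0.218). Ndufa12, a complex I accessory subunit, had 14.9 and 14.7 CPM in high Cort libraries and 18.6 and 16.3 CPM in sham libraries (−0.21 ± 0.088, adjusted p = 0.491), and Cox7a2 had a log2 fold change of −0.16 ± 0.080 (adjusted p = 0.670). In supplemented ADX against sham, 41 of 73 were positive with a median of 0.010, 1 was higher and 1 lower at an unadjusted p under 0.05 (3.85% and 6.16% of all genes), and none was called, where 0.0156% of all genes were. That median was −0.024 without supplemented ADX replicate 2, 0.043 without replicate 1, 0.0039 without sham replicate 1, 0.026 with the thalamus score and −0.0005 with the length trend removed. The thalamus genes were positive in 0 of 13, with a median of −0.49. Ndufb2 of complex I (log2 fold change 0.22 ± 0.095, SE, adjusted p = 0.483), Cox7a2 (−0.17 ± 0.079, adjusted p = 0.497) and Cyc1, cytochrome c1 of complex III (−0.10 ± 0.049, adjusted p = 0.510), led by p.

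Members differed in how closely they followed the rest of the list over the 12 libraries. Pearson's r of each gene's log2 CPM with the mean of the other members had a median of 0.637, as a description of points that share library and depth. Cox6c (0.97), Cox8a (0.96) and Ndufa4 (0.90) were closest to the list mean. Sdhb (−0.35), Atp5s (−0.11) and Uqcrq (0.02) were the farthest from it. Sdhb, the iron-sulphur subunit of complex II, had 74.6 to 83.5 CPM in 11 libraries and 61.9 CPM in 3 h acute replicate 2, whose partner had 82.9 CPM. Ndufa2, a complex I accessory subunit, had the largest SD about the list, 0.155 on the log2 scale, with 8.94 and 13.0 CPM in the 3 h acute libraries and 7.86 and 9.39 CPM in those of 1 h acute. Its log2 fold change of 0.37 in 3 h acute against 1 h acute was the largest of any member there and was not called (adjusted p = 0.433). Sdha, at 453 to 478 CPM, varied little.

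Genes around the chain were read from lists of related mitochondrial functions. With the thalamus score as a covariate, none of the calls against sham given below for these lists was kept, where 3 genes of all 12856 were called in 1 h acute against sham, 4 in 3 h acute against sham and 7 in ADX against sham. Of 38 assembly factors tested, 3 were called lower in 1 h acute against sham and none higher, where 7.2% of all genes were called lower. They were Ttc19, a complex III assembly factor (log2 fold change −0.59 ± 0.105, SE, adjusted p = 0.00808), Atpaf1, a chaperone of the ATP synthase head (−0.48 ± 0.095, adjusted p = 0.0112), and Ndufaf4 of complex I assembly (−0.26 ± 0.075, adjusted p = 0.0366). In 3 h acute against sham, where 4.57% of all genes were called lower, 4 were, Atpaf1 (−0.46), Ttc19 (−0.45), Ndufaf4 (−0.35) and Coa5 (−0.16). Against supplemented ADX, 0 of 38 were called in either acute group. In high Cort against ADX, Cox15, an enzyme of haem A synthesis for complex IV, was higher (0.21 ± 0.054, adjusted p = 0.0303).

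For the calls that follow, 12.8% of all genes were called in 1 h acute against sham, 7.98% in 3 h acute against sham and 0.233% in ADX against sham. Of 18 genes of the tricarboxylic acid cycle and pyruvate entry, 3 were lower in 1 h acute against sham, Sucla2 and Suclg2 of succinyl-CoA ligase (−0.23 and −0.15) and Pdha1 of pyruvate dehydrogenase (−0.20). In 3 h acute against sham, 3 were lower, Pc (pyruvate carboxylase, −0.31), Sucla2 (−0.21) and Dlat of pyruvate dehydrogenase (−0.18). Idh2, the mitochondrial isocitrate dehydrogenase, was higher in high Cort against ADX (0.37 ± 0.078, SE, adjusted p = 0.0158). Among 18 regulators of mitochondrial biogenesis, the coactivators Ppargc1b (0.30) and Pprc1 (0.23) were higher in 1 h acute against sham, and Polrmt, the mitochondrial RNA polymerase, was higher in 3 h acute against sham (0.22). Of 13 genes of ATP exchange and uncoupling, the creatine kinase gene Ckb was lower in ADX against sham (−0.23 ± 0.043, SE, adjusted p = 0.0368) and higher in high Cort against ADX (0.31 ± 0.043, adjusted p = 0.000618). In that last comparison Ckmt1b, the mitochondrial creatine kinase, was also higher (0.17) and Ak4 lower (−0.36). In 1 h acute against sham, Ckmt1b (−0.16) and the outer membrane channel Vdac1 (−0.16) were lower and Ucp2 was higher (0.27). Cycs, the electron carrier between complexes III and IV, was the 1 gene of 9 related subunits and carriers called in that comparison (−0.16 ± 0.049, SE, adjusted p = 0.0399). Of 8 antioxidant genes, Txnrd2 was lower in 1 h acute against sham (−0.37) and Gpx1 higher in high Cort against ADX (0.44). Of the calls in high Cort against ADX, where 5.77% of all genes were called, those of Idh2, Ckb and Ckmt1b were kept with the thalamus score and those of Cox15, Ak4 and Gpx1 were not. None of 69 mitochondrial ribosomal protein genes was called by edgeR in any of the 10 comparisons. At an unadjusted p under 0.05 the most were 7 higher in 3 h acute against 1 h acute and 5 lower in 1 h acute against supplemented ADX. Over all genes, 4.92% were higher in the former comparison and 6.85% lower in the latter.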

How the data were processed

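Per the labels' protocols, libraries were made with a TruSeq RNA kit and sequenced on a HiSeq2000; kits of that version are not known to mark strand. Named in the submitters' processing notes are TopHat2 2.1.1, CASAVA 1.8.2, the build rn6 and Cufflinks 2.2.1; the sources used here do not give their roles. The deposited files are Cuffdiff tables of 2 separate runs, per the file headers, with high Cort, ADX and sham in one run and the other groups in the other. The deposited raw fragments are expected counts; they were rounded, and no value of the 73 genes needed rounding. The deposited FPKM values, which the authors scaled within a run, served for levels and as an alternative. The deposited scaled fragments, a signal that the authors scaled to library size within a run, were not tested. Comparisons that cross the runs were made on raw fragments only.

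Counts were fitted in R 4.3.3 with edgeR 4.0.16 (filterByExpr, TMM scaling, robust quasi-likelihood, 12 libraries, 6 residual degrees of freedom), 2-sided, with p adjusted over all genes of a comparison. CPM are unscaled by TMM; fold changes and centred log2 levels are scaled by it. An exact permutation of 2 against 2 libraries can give no p under 0.333. Every called gene was named, or, without a call, the 3 smallest p; the genes described for their level or spread were set by a rule of the same kind, except 1 that is not reported here, and Cox4i2, Cox8c, Ndufs7 in 1 h acute and Tmem30a were named after their values were seen. Members and lists were chosen with earlier results of these data known. Alternatives were RLE size factors, other filters, DESeq2 1.42.0, limma 3.58.1 on log2 FPKM within a run, the thalamus score, a replicate block, a fit of the 4 libraries compared and leaving out each library. The removal of a trend on implied transcript length was added after the data were seen. The script was tested on simulated data.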

Additional observations from a re-analysis of the deposited data

Results flagged for a closer look

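The mean level of the list differed from the shared sham libraries in opposite directions in the acute groups, and the difference of 3 h acute was close to the spread between libraries. The difference in the mean log2 level of the respiratory chain genes was −0.0865 for 1 h acute minus sham and 0.0383 for 3 h acute minus sham, with both 1 h acute libraries below and both 3 h acute libraries above both sham libraries, where the SD between libraries of a group was 0.0354. With the length trend removed, the median log2 fold change was −0.0394 in 1 h acute against sham and 0.0023 in 3 h acute against sham, with 38 of 73 positive in the comparison of 3 h acute, and without 3 h acute replicate 2 that of 3 h acute was 0.0058. The difference between these effects was not tested for the list. Gene by gene, 3 h acute against 1 h acute called 0 of 73 members with edgeR, where 0.0233% of all genes were called. At an unadjusted p under 0.05, 27 members were higher and 0 lower, against 4.92% and 5.7% of all genes. The shortest class of all tested genes by transcript length, the thalamus genes and the fragment totals also differed between these libraries, and their part in the result was not tested beyond the fits with a thalamus covariate and without a length trend.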

How the results depend on the processing

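The 8 comparisons with 0 called members stayed at 0 under every alternative run. In 1 h acute against sham, 5 members and 1641 of 12856 genes were called. The members numbered 3 with no filter on low counts (1555 of 15060 genes called) and 2 with a replicate block (1293 genes). They numbered 1 with DESeq2 (1360 genes) and 1 with the length trend removed (1624 genes). They became 0 with the thalamus score (3 genes) and in a fit of the 4 libraries (23 genes). None of the 5 calls was kept in every fit with 1 library left out. The median log2 fold change of the 73 genes was −0.0989 to −0.0609 in those fits. In 3 h acute against sham, 1 member and 1026 genes were called. The 1 member became 0 with the thalamus score (4 genes called), with DESeq2 (982 genes) and in the fit of 4 libraries (740 genes). With a library left out, the log2 fold change of Uqcrq was 0.316 to 0.452, and that of Sdhb was −0.395 without 3 h acute replicate 1. The test among the 6 groups called 3 members and 1663 genes. The members became 0 with the replicate block (1197 genes called), the thalamus score (203 genes), DESeq2 (1684 genes) or the length trend removed (1631 genes). Their number also fell in each fit with a library left out. The cause of these losses was not tested; fits with fewer libraries also have fewer degrees of freedom.

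With the length trend removed, the median log2 fold change of the 73 genes was −0.018 in ADX against sham, 0.0084 in supplemented ADX against ADX, −0.0383 in 1 h acute against supplemented ADX, 0.0401 in 3 h acute against 1 h acute, −0.0394 in 1 h acute against sham and 0.0023 in 3 h acute against sham. With the thalamus score it was −0.0539 in 1 h acute against supplemented ADX, −0.0383 in 1 h acute against sham and 0.0758 in 3 h acute against sham. With a library left out it ranged over −0.0545 to 0.0264 in high Cort against sham, where it was negative in 9 of 14 alternatives (−0.0545 without high Cort replicate 1, and −0.0086 to −0.0027 in the others), 0.0045 to 0.0785 in high Cort against ADX, 0.0174 to 0.0892 in supplemented ADX against ADX, −0.124 to −0.0587 in 1 h acute against supplemented ADX, 0.0046 to 0.0560 in 3 h acute against supplemented ADX and 0.0058 to 0.0637 in 3 h acute against sham. Among the 6 called genes, the call was lost in 3 of 12 alternatives for Cox7a2, 6 for Uqcrq, 7 for Atp5i, 8 for Cox5a, 10 for Cox6c and 11 for Uqcrc2.

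Replicate numbers do not mark shared animals or days in the labels, and same-numbered libraries correlated at −0.366 to 0.143 over 15 pairs of groups, so the replicate block pairs libraries by a number only. With a median standard error of 0.065 to 0.070, log2 differences of that size were not detectable.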
